A study of Mus musculus with 4 samples.

Results

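The genes described here are 10 mouse genes of the endoplasmic reticulum (ER) stress and heat shock responses: Hspa5, Hsp90b1, Calr, Pdia4, Xbp1, Atf4, Ddit3, Hspa1a, Hspa1b and Hspb1. They were chosen by symbol, with earlier results of these data known. Of the 10, 8 are among the 12700 genes of the deposited count table, and Hspa1b and Hspb1 were not analysed here. RNA was sequenced from 2 brain areas of C57BL/6 mice aged 9 months. The genotypes are Ids-/- (Ids-ko) and wild type littermates (wt). Ids encodes iduronate-2-sulfatase, a lysosomal enzyme whose loss gives the mouse model of mucopolysaccharidosis type II, Hunter syndrome. The areas are the cerebral cortex (Cx) and a block of midbrain, diencephalon and hippocampus (M), which in the study's dissection also held the hypothalamus, thalamus and striatum. RNA from 7 mice was pooled into each library, so that each of the 4 conditions, CxH (Ids-ko cortex), CxWT (wt cortex), MH (Ids-ko M area) and MWT (wt M area), is 1 library. Both areas came from the same brains. As labelled, CxH and MH thus share their 7 Ids-ko mice and CxWT and MWT their 7 wt mice. The comparisons within each area are therefore not independent of each other. Reads on genes ranged from 16380080 in MWT to 23475080 in CxH. Every error below covers the counting of reads only, because no condition has a second library, and a call compares 2 libraries, not 2 conditions. In bulk tissue, fewer cells of a type and less RNA per cell cannot be told apart.

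The library names go against some of the genes that should mark them, and this touches every direction given below. Reads were scaled to 1000000 aligned reads per library (RPM). Ids had 135 RPM in the library labelled CxH and 354 RPM in that labelled CxWT. It had 368 RPM in the library labelled MH and 155 RPM in that labelled MWT. It was thus low in CxH, as the genotype label says, but in the M area it was high in the library labelled Ids-ko and low in the library labelled wt. The sources used here do not state which part of Ids is disrupted or counted. The 11 markers of cortical excitatory neurons summed to 1993 RPM in CxH and 286 in CxWT, with 1862 in MH and 238 in MWT. The 11 markers of midbrain and diencephalon summed to 21.0, 470.1, 31.9 and 413 RPM in the same order, and 6 of them in CxH and 3 in MH had at most 3 reads. The areas as labelled would pair CxH with CxWT and MH with MWT, whereas the markers paired CxH with MH and CxWT with MWT, and Ids paired CxH with MWT and CxWT with MH. Calls of the members are therefore given for all 6 pairs of libraries, each library under its label.

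The ER folds secreted and membrane proteins with the help of chaperones that hold unfolded chains and enzymes that form disulfide bonds. When unfolded protein accumulates, the sensors IRE1, PERK and ATF6 start the unfolded protein response: IRE1 splices Xbp1 mRNA, PERK favours translation of ATF4, which induces the gene of CHOP (Ddit3), and cleaved ATF6 enters the nucleus with XBP1 to raise chaperone genes. The heat shock response is the cytosolic counterpart, in which HSF1 induces Hspa1a, Hspa1b and Hspb1. Several of these steps act on splicing, translation or proteolysis, which reads counted per gene do not show.

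The promoters were searched for the exact letters of the DNA element that links this response to transcription. In the ER stress response element (ERSE), CCAAT is followed by CCACG after 9 bases of any kind. It was searched on both strands of the RefSeq promoters (build GRCm38.p6, 250 bases before to 50 after each gene's start), in which all 10 members were matched. ERSE was in 3 of the 10 members and in 39 of 32851 promoters of the same length (0.119%). The members were chosen as genes of these stress responses, so the shares are a description and not a test. The 250 bases before the start of those 3 genes are given from 5′ to 3′ on the gene's strand, with each ERSE in capitals. They lie at chr2:34771840-34772089 on the plus strand for Hspa5, and on the minus strand at chr10:86705445-86705694 for Hsp90b1 and chr8:84846932-84847181 for Calr.
Hspa5: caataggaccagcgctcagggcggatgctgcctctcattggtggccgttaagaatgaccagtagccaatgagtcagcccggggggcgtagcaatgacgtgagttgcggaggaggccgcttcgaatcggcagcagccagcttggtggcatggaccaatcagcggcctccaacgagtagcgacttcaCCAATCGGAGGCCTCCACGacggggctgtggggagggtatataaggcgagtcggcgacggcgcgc
Hsp90b1: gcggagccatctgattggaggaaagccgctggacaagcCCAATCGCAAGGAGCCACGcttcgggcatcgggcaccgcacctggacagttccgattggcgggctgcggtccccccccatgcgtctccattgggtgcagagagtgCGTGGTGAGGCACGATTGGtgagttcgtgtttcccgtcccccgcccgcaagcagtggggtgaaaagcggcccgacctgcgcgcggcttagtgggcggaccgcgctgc
Calr: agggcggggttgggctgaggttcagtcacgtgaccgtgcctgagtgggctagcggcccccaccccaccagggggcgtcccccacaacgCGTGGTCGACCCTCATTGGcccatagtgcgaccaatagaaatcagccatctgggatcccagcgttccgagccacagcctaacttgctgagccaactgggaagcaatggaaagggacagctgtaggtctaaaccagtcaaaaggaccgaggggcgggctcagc

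The ERSE of Hspa5 lies at -65 to -47 from the start. Hsp90b1 has an ERSE at -212 to -194 and another on the opposite strand at -107 to -89, and that of Calr lies at -162 to -144 on the opposite strand. The promoters were also searched for ERSE-II (ATTGG, 1 base, CCACG), for a heat shock element of 3 units alternating between GAA and TTC with 2 bases between units, and for the C/EBP-ATF element TGATGNAA. These letters were in none of the members' windows, and in 0.0365%, 0.603% and 3.97% of all promoters. CCAAT, which every ERSE contains, was in 8 of the 10 members and in 37.4% of all promoters. A match describes letters and does not show that a factor binds there. Nor does the lack of a match show that a gene lacks the element. Forms that differ by a letter, or that lie outside the window, were not searched.

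Hspa1a and Hspa1b, the inducible Hsp70 genes, are near copies of each other. Over the 250 bases before the start, at chr17:34972157-34972406 and chr17:34959239-34959488 of GRCm38.p6, both on the minus strand, they differ at 3 positions, which are in capitals (98.8% identical).
Hspa1a: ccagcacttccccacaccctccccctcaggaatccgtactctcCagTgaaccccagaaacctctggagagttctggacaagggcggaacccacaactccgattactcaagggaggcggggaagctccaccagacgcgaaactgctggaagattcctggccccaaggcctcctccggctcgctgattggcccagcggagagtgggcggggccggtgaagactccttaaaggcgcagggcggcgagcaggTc
Hspa1b: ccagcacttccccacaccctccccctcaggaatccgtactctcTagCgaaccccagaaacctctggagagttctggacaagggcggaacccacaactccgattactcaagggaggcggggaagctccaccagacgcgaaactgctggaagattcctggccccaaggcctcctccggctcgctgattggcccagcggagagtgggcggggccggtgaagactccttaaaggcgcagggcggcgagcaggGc

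The likeness extends into the transcripts. Of the 2877 windows of 50 bases in the longest Hspa1a transcript, 1710 (59.4%) are also in Hspa1b. Counting left out reads that fit more than 1 gene, so the count of Hspa1a is uncertain to that extent, and that of Hspa1b was not analysed here.

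In the mm9 build used for alignment, with GENCODE vM1 gene models, the 8 measured genes are spread over 7 chromosomes. Hspa5 (Entrez 14828) is at chr2:34627490-34632051 and Xbp1 (Entrez 22433) at chr11:5420662-5425896. Atf4 (Entrez 11911) is at chr15:80085614-80087970 and Ddit3 (Entrez 13198) at chr10:126727830-126733344. These 4 are on the plus strand. On the minus strand, Hsp90b1 (Entrez 22027) is at chr10:86152954-86168254, Calr (Entrez 12317) at chr8:87365749-87370833, Pdia4 (Entrez 12304) at chr6:47746141-47763511 and Hspa1a (Entrez 193740) at chr17:35106144-35109069. Whether counting used strand is not given in the sources used here. Opposite-strand genes share 552 exon bases of Hspa1a (18.9%, Gm20481), 415 of Hsp90b1 (10.3%, 1810014B01Rik) and 68 of Ddit3 (3.97%, Mars), so those reads could belong to either gene.

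Among the 8 measured genes, Hspa1a varied most between libraries, followed by Hsp90b1, Ddit3 and Hspa5, whereas Calr, Pdia4, Xbp1 and Atf4 were nearly level. The highest library exceeded the lowest 3.03-fold for Hspa1a, 1.89-fold for Hsp90b1, 1.79-fold for Ddit3 and 1.51-fold for Hspa5. For Xbp1, Calr, Atf4 and Pdia4 the span was 1.16-, 1.12-, 1.09- and 1.08-fold. The median span was 1.50-fold over the 11010 genes that reached 100 reads in all 4 libraries. The 4 level genes stood at the 5.94th percentile of that distribution or below, and Hspa1a at the 96.1st. The chaperones Hspa5 and Hsp90b1 were highest in the library labelled MWT, where Ddit3 and Hspa1a were lowest. Part of this division went with the correction for GC content and length. The largest log2 ratio in size over the 6 pairs then was 0.91 for Hspa1a, 0.87 for Ddit3 and 0.38 for Hsp90b1, and 0.28 to 0.32 for the other 5 genes, Hspa5 included.

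**Figure D1:**
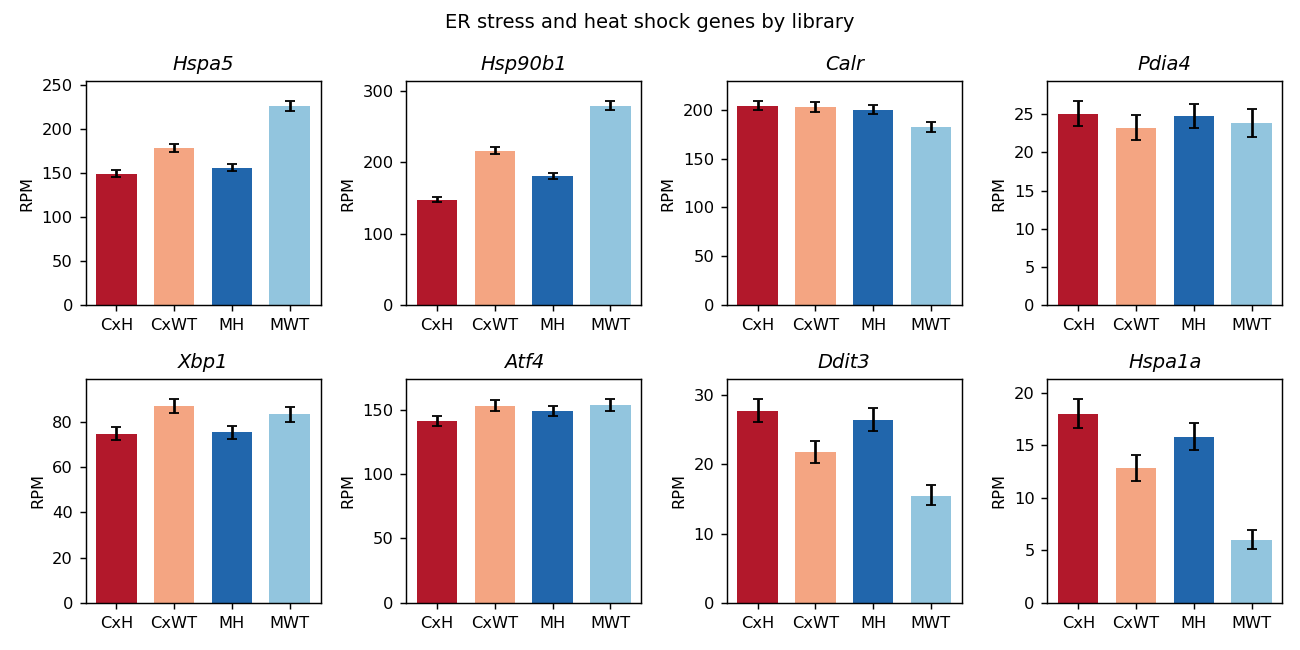
Levels (RPM, y axis from 0, own scale per panel) of the 8 measured genes in the libraries labelled CxH, CxWT, MH and MWT, with exact 95% Poisson intervals for counting error and 1 library per bar. Hspa5 and Hsp90b1 peak in MWT at 226 and 279 RPM, Hspa1a falls to 5.94 RPM there, and Calr, Pdia4, Xbp1 and Atf4 are nearly level.

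A gene was called between 2 libraries when its log2 ratio of RPM reached 0.7 in size and the Poisson likelihood ratio test was significant at 0.05, which are the thresholds of the study. For Ids-ko over wt as labelled in the cortex (CxH over CxWT), 0 of the 8 genes were called, where 20.9% of all genes were (9.46% higher and 11.5% lower in CxH). For Ids-ko over wt as labelled in the M area (MH over MWT), 2 of the 8 were called, Ddit3 and Hspa1a, both higher in MH. That is 25%, and 25% of all genes were called in that pair, 12.3% higher and 12.7% lower in MH. For the areas within Ids-ko as labelled (CxH over MH), 0 of 8 were called against 3.5% of all genes (2.43% higher and 1.06% lower in CxH). For the areas within wt as labelled (CxWT over MWT), 1 of 8 was called, Hspa1a, higher in CxWT, against 7.54% of all genes (5.43% higher and 2.11% lower in CxWT). Of the pairs that differ in both labels, MH over CxWT had 0 of 8 called (15.3% of all genes, 6.41% higher and 8.89% lower in MH). The other, CxH over MWT, had 3 of 8, with Ddit3 and Hspa1a higher and Hsp90b1 lower in CxH (30.7% of all genes, 15.6% higher and 15.1% lower in CxH). Every call among the 8 genes, in these 6 pairs, thus involves the library labelled MWT. That library had the fewest reads on genes. In the study it also had the lowest share of reads that passed quality control and the lowest share of those that aligned. The part of library quality in the calls was not tested. The median log2 ratio of the 8 genes lay between -0.05 and 0.03 in the 6 pairs, and that of all genes between -0.11 and 0.04.

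**Figure D2:**
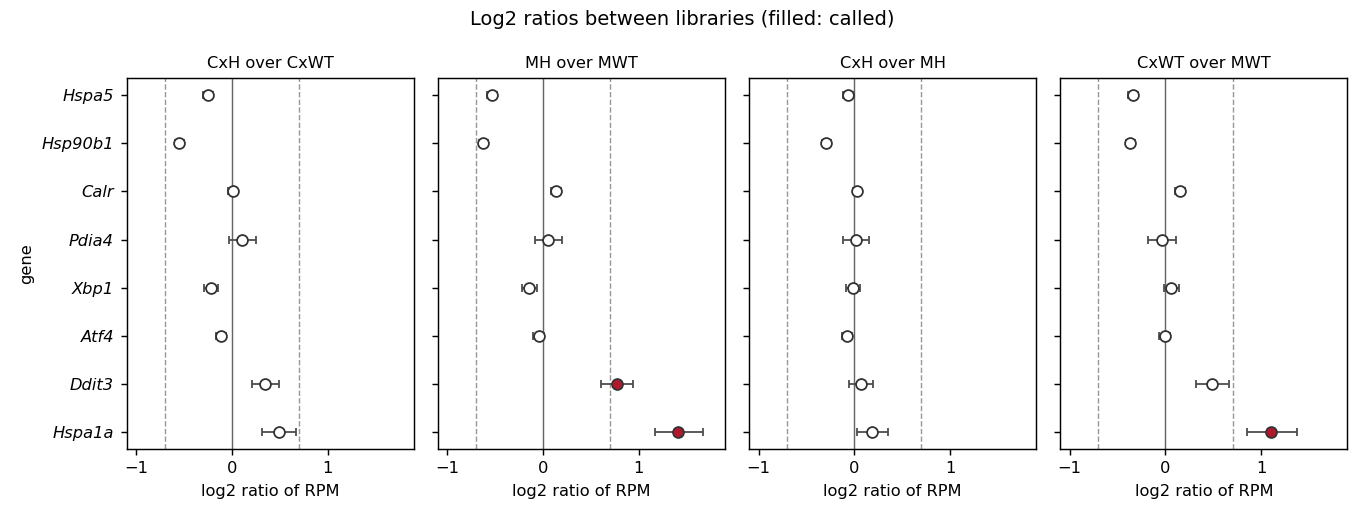
Log2 ratios of RPM (x axis) of the 8 genes in the 4 comparisons of the study, first library over second as labelled, with 95% intervals for counting error. Filled points are called, dashed lines mark 0.7 in size, and the only filled points are Ddit3 in MH over MWT and Hspa1a in MH over MWT and in CxWT over MWT.

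Hspa5 encodes BiP, the ER Hsp70 that binds unfolded chains and holds the stress sensors inactive. It had 149 RPM in the library labelled CxH and 178 in CxWT, with 156 in MH and 226 in MWT. CxH and MH were thus the low libraries and MWT the high one, with intervals that overlapped only between CxH and MH. The log2 ratio was -0.25 ± 0.03 (SE of counting) in CxH over CxWT and -0.53 ± 0.03 in MH over MWT, below the size needed for a call. The GC and length correction took them to -0.13 and -0.28. It was -0.34 ± 0.03 in CxWT over MWT, which places Hspa5 at the 11.4th percentile of all genes in that pair, and -0.15 corrected. In CxH over MWT, its widest gap, it was -0.60 ± 0.03, and -0.70 with column totals, which added a call. Between CxH and MH it was -0.06 ± 0.03 and changed sign, at 0.00, with the correction for GC content and length.

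Hsp90b1 encodes GRP94, the Hsp90 of the ER, which folds integrins and Toll-like receptors. Its level was 148 RPM in the library labelled CxH and 216 in CxWT, with 181 in MH and 279 in MWT. No pair of these intervals overlapped, and the order of the 4 libraries was that of Hspa5. The log2 ratio was -0.55 ± 0.03 in CxH over CxWT and -0.63 ± 0.02 in MH over MWT. In CxH over MWT, the widest gap, it was -0.92 ± 0.02 and was called. With the GC and length correction that value became -0.38 and the call was lost.

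Calr encodes calreticulin, the lectin chaperone that binds calcium in the ER lumen and folds glycoproteins. It had 204 RPM in the library labelled CxH and 203 in CxWT, with 200.0 in MH and 182 in MWT, so that MWT alone was lower than the rest. Its log2 ratio was 0.01 ± 0.02 in CxH over CxWT, which changed sign when column totals were used, and 0.13 ± 0.03 in MH over MWT. The GC and length correction took the value in MH over MWT to 0.30. Calr was lowest in the library where Hspa5 and Hsp90b1, which also have an ERSE match, were highest. The part of ERSE in these levels was not tested.

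Pdia4 encodes ERp72, a protein disulfide isomerase. It had 25.0 RPM in the library labelled CxH and 23.2 in CxWT, with 24.7 in MH and 23.8 in MWT. All 4 intervals overlapped. Of the 6 pairs, the largest log2 ratio was 0.11 ± 0.07 in CxH over CxWT, with a 95% interval of -0.03 to 0.25. In MH over MWT it was 0.06 ± 0.07, with an interval of -0.09 to 0.20. The correction for GC content and length took Pdia4 to 0.17 and 0.25 in these pairs, and to its largest value, 0.30, in CxH over MWT. The sign turned with column totals in MH over MWT (-0.01) and with that correction in CxWT over MWT (from -0.04 to 0.12). Column totals also turned it in CxH over MH (from 0.02 to -0.03) and in CxH over MWT (from 0.07 to -0.03). DESeq2 factors turned it in CxH over MH too.

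Xbp1 encodes the transcription factor whose mRNA IRE1 splices, and spliced and unspliced forms are not separated in these counts. Its level was 74.7 RPM in the library labelled CxH and 86.8 in CxWT, with 75.3 in MH and 83.2 in MWT. CxH and MH were alike and below CxWT and MWT. On the log2 scale the ratio was -0.22 ± 0.04 in CxH over CxWT and -0.14 ± 0.04 in MH over MWT. In CxH over MH it was -0.01 ± 0.04, and in CxWT over MWT 0.06 ± 0.04, which turned negative under another scaling.

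Atf4 encodes the factor made when PERK or a related kinase slows translation, a control that acts on its protein. It had 141 RPM in the library labelled CxH and 153 in CxWT, with 149 in MH and 154 in MWT. Only the interval of CxH lay apart from those of CxWT and MWT. The log2 ratio was -0.11 ± 0.03 in CxH over CxWT, but -0.26 with the GC and length correction and -0.02 when the libraries were scaled by TMM factors. In MH over MWT it was -0.04 ± 0.03, a sign that 2 of the 3 other scalings turned.

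Ddit3 encodes CHOP, the factor that ATF4 induces and that favours cell death under lasting stress. It had 27.7 RPM (1067 reads) in the library labelled CxH and 21.7 (731 reads) in CxWT, with 26.4 (986 reads) in MH and 15.5 (448 reads) in MWT. CxH and MH overlapped, CxWT lay below them and MWT was lowest. The log2 ratio was 0.77 ± 0.08 in MH over MWT, a 1.71-fold difference with a 95% interval of 0.61 to 0.93 on the log2 scale, and it was called. In CxH over CxWT it was 0.35 ± 0.07 (0.13 corrected for GC content and length) and in CxWT over MWT 0.49 ± 0.09, below the threshold. The call in MH over MWT was lost when a variation of 0.2 between pools was assumed in edgeR's exact test, and that in CxH over MWT (0.84 ± 0.08) with the GC and length correction (0.68).

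Hspa1a encodes the inducible cytosolic Hsp70. It had 18.0 RPM (693 reads) in the library labelled CxH and 12.8 (430 reads) in CxWT, with 15.8 (591 reads) in MH and 5.94 (172 reads) in MWT. MWT stood below the other 3 libraries, CxWT below CxH and MH, and the intervals of CxH and MH overlapped. The log2 ratio was 1.41 ± 0.12 in MH over MWT, a 2.66-fold difference at the 96.6th percentile of all genes, with an interval of 1.17 to 1.67. In CxWT over MWT it was 1.11 ± 0.13, a 2.15-fold difference at the 98.8th percentile, with an interval of 0.85 to 1.37. In CxH over CxWT it was 0.49 ± 0.09 (0.19 corrected) and in CxH over MH 0.19 ± 0.08, neither called. With the GC and length correction the value fell to 0.91 in MH over MWT and to 0.71 in CxWT over MWT, both still called, and was -0.01 in CxH over MH.

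Other genes ordered the 4 libraries as Ddit3 and Hspa1a did, CxH first, then MH, CxWT and MWT. The 10 immediate early genes, such as Fos and Egr1, which neurons switch on with activity, summed to 930.2 RPM in the library labelled CxH, 729 in MH, 201 in CxWT and 157 in MWT. The cortical neuron markers had the same order. The sums of the 8 microglial markers, 487 RPM in CxH, 235 in MH, 205 in CxWT and 382 in MWT, did not follow it. The 5 astrocyte markers ran from 1044 RPM in MH to 1525 in MWT and the 5 endothelial markers from 90.2 in CxWT to 141 in CxH. The 5 oligodendrocyte markers ran from 4413 in CxH to 8419 in CxWT and the 4 choroid plexus markers from 124 in CxWT to 612 in MH. The part of these cells or of neuronal activity in the values of the 8 genes was not tested.

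Per length of transcript (RPKM, RPM per kilobase), Calr was first in 3 of the 4 libraries and Hspa1a last in all 4. In the library labelled CxH the levels ran from Calr (93.4 RPKM) through Atf4 (82.0), Hspa5 (57.2), Hsp90b1 (52.3), Xbp1 (35.1), Ddit3 (31.1) and Pdia4 (10.1) to Hspa1a (6.15). CxWT and MH kept this order except that Hsp90b1 stood above Hspa5. In CxWT the intervals of Calr (92.8 RPKM) and Atf4 (88.6) overlapped. In MWT, Hsp90b1 was first at 98.8 RPKM, followed by Atf4 (89.1), Hspa5 (86.4) and Calr (83.5). There the neighbours Atf4 and Hspa5, and Hspa5 and Calr, were not apart beyond their counting intervals. Xbp1, Ddit3, Pdia4 and Hspa1a followed in every library, with no overlap between them. The lengths are those of the longest GENCODE transcript and may not be the isoforms present. For Hspa1a the full length was used, although 59.4% of its windows of 50 bases are also in Hspa1b. Reads that fit both genes were left out, so its RPKM may be too low and its rank below Pdia4 is uncertain.

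Likeness of pattern was taken as the largest difference between 2 genes in log2 RPM centred over the 4 libraries, among the members and other genes of these pathways that reached 100 reads in all 4 libraries (84 candidates for each member). The nearest genes were Dnajc3, Mbtps2 and Hspa9 for Hspa5 (largest differences 0.09, 0.09 and 0.11). For Hsp90b1 they were Hspd1, Dnajb4 and Hsp90aa1 (0.09, 0.11 and 0.12). Calr was nearest to Eif2ak1, Eif2ak3 and Bag1 (0.08, 0.09 and 0.09), and Pdia4 to Eif2ak1, Eif2ak3 and Calr (0.03, 0.09 and 0.10). Xbp1 was nearest to Ppp1r15b, Stip1 and Atf4 (0.05, 0.07 and 0.08), and Atf4 to Ppp1r15b, Sel1l and Xbp1 (0.05, 0.06 and 0.08). Ddit3 had Ube2g2, Syvn1 and Ppp1r15a nearest (0.15, 0.20 and 0.21), and Hspa1a had Atf5, Ddit3 and Atf6b (0.39, 0.50 and 0.52). With 4 libraries such likeness is common. Of 11009 genes in the table, between 8 (for Pdia4) and 329 (for Hspa1a) were as close as the nearest of these genes.

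Of 87 other genes listed for these pathways, 83 were analysed. In CxH over CxWT, 12 of the 83 were called, 5 higher and 7 lower (14.5%, against 20.9% of all genes). In MH over MWT, 16 were called, 4 higher and 12 lower (19.3%, against 25%). None were called in CxH over MH (3.5% of all genes), and 6 were called in CxWT over MWT, 4 higher and 2 lower (7.23%, against 7.54%). Of the pairs that differ in both labels, MH over CxWT had 8 called, 3 higher and 5 lower (9.64%, against 15.3%), and CxH over MWT had 20, 7 higher and 13 lower (24.1%, against 30.7%). The median log2 ratios of the 83 were -0.12, -0.14, 0.01 and 0.00 in the 4 comparisons of the study, and those of all genes -0.09, -0.07, 0.01 and 0.04. TMM or DESeq2 factors turned the split in CxH over CxWT to 6 higher and 4 lower. In CxWT over MWT, column totals gave 2 higher and 3 lower, and TMM or DESeq2 factors 2 higher and 2 lower. After correction for GC content and length, 5 of the 12 genes were still called in CxH over CxWT (Atf6, Creb3l2, Mthfd2, Nupr1 and Hspa2), 4 of the 16 in MH over MWT (Pdia3, Txndc5, Atf6 and Dnaja1) and 1 of the 6 in CxWT over MWT (Nupr1). It also added calls, 4 in CxH over CxWT (Creb3l1, Nfyb, Chac1 and Sesn2, which made 9 in all), 1 in MH over MWT (Fkbp4) and 1 in CxWT over MWT (Cryab). Nfyb, Chac1, Fkbp4 and Cryab are named after their values were seen. Of the 34 calls in these comparisons, 4 were kept under all 8 alternatives, those of Mthfd2 and Nupr1 in CxH over CxWT and of Pdia3 and Dnaja1 in MH over MWT.

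**Figure D3:**
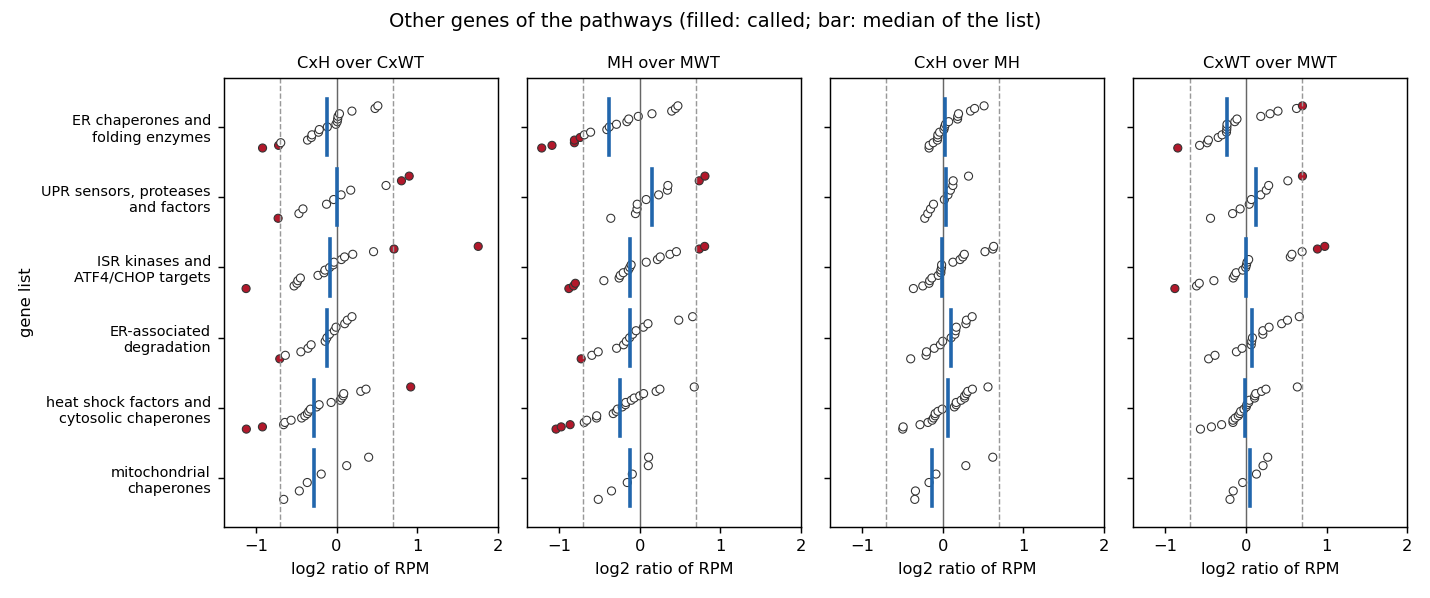
Log2 ratios of RPM (x axis) of 83 other genes of the pathways in 6 lists (rows; UPR, unfolded protein response; ISR, integrated stress response) for the 4 comparisons of the study as labelled, each point a gene, filled if called, with the list's median as a bar. In MH over MWT the 5 filled ER chaperones and the 3 filled cytosolic chaperones all lie on the left, and CxH over MH has no filled point.

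Of the 17 other ER chaperones and folding enzymes, 2 were called lower and 0 higher in CxH over CxWT (11.8%, against 20.9% of all genes), and 5 lower and 0 higher in MH over MWT (29.4%, against 25%). The 1 gene lower in both was Dnajb9, an ER J-protein that works with BiP, at -0.92 ± 0.06 and -1.21 ± 0.06, which the GC and length correction took to -0.40 and -0.54, below the threshold. Its levels were 24.0 RPM in the library labelled CxH and 45.3 in CxWT, with 27.0 in MH and 62.6 in MWT. Pdia3 (ERp57, the disulfide isomerase that works with calreticulin) had 133, 164, 139 and 295 RPM in that order. MWT thus stood apart, and Pdia3 was called lower in MH over MWT (-1.09 ± 0.03) and in CxWT over MWT (-0.85 ± 0.03). Canx (calnexin, the membrane-bound relative of calreticulin) had 249, 402, 270.4 and 474 RPM and was called in MH over MWT (-0.81 ± 0.02), while -0.69 ± 0.02 in CxH over CxWT just missed the threshold. Txndc5 and the oxidase Ero1lb were also called lower in MH over MWT (-0.74 ± 0.06 and -0.81 ± 0.10), and the oxidase Ero1l in CxH over CxWT (-0.72 ± 0.07). Creld2 lay at the threshold in CxWT over MWT (0.70 ± 0.14), the 1 gene of this list called higher there, and adding 0.5 to every count or using any of the 3 other scalings ended that call. The list's median was -0.11 in CxH over CxWT and -0.38 in MH over MWT.

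Among the 10 sensors, proteases and factors of the unfolded protein response, Atf6 and Atf6b were called higher in both Ids-ko over wt comparisons as labelled. Atf6, the sensor cleaved in the Golgi, had 71.9 RPM in the library labelled CxH and 38.5 in CxWT, with 71.0 in MH and 40.5 in MWT. CxH and MH were alike and above CxWT and MWT, with log2 ratios of 0.90 ± 0.05 in CxH over CxWT and 0.81 ± 0.05 in MH over MWT. Corrected for GC content and length, these were 1.05 and 0.85. The call in MH over MWT was lost in edgeR's exact test with an assumed variation of 0.2, and both calls at a log2 threshold of 1. The related Atf6b had ratios of 0.81 ± 0.06 and 0.74 ± 0.07, which the same correction took to 0.48 and 0.19, below the threshold. The factor Creb3l2 was called lower in CxH over CxWT (-0.72 ± 0.10), and Creb3l1, on 117 and 62 reads, at the threshold in CxWT over MWT (0.70 ± 0.23), a call that was likewise lost with 0.5 added or with other scalings. Of the 10 genes, 30% were called in CxH over CxWT and 20% in MH over MWT, against 20.9% and 25% of all genes. As labelled, the Ids-ko over wt comparisons share their mice. In both, the summed cortical markers differed too (1993 against 286 RPM and 1862 against 238 RPM). Their part in the values of Atf6 was not tested.

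Of the 17 measured genes of the integrated stress response, the branch that runs through eIF2α and ATF4, 2 were called higher and 1 lower in CxH over CxWT, and 2 higher and 3 lower in MH over MWT. These are 17.6% and 29.4% of the list, against 20.9% and 25% of all genes. Atf5, an ATF4 relative, was higher in both (0.71 ± 0.09 and 0.74 ± 0.11), and Mthfd2, a mitochondrial folate enzyme that ATF4 induces, lower in both (-1.12 ± 0.16 and -0.80 ± 0.15). Nupr1, a small stress-induced chromatin protein, had 6.34 RPM in the library labelled CxH and 1.87 in CxWT, with 4.12 in MH and 3.45 in MWT. Its ratio was 1.76 ± 0.20 in CxH over CxWT and -0.88 ± 0.23 in CxWT over MWT. The eIF2α gene Eif2s1 and its kinase Eif2ak2 (PKR) were called lower in MH over MWT (-0.88 ± 0.05 and -0.82 ± 0.13). Sesn2 was called higher in CxWT over MWT (0.89 ± 0.14). Cebpb, named after its values were seen because it had under 100 reads, was called higher in MH over MWT (79 and 35 reads, 0.81) and in CxWT over MWT (0.98), but the GC and length correction took it to -0.13 and 0.20. That correction took Atf5 to 0.36 and 0.20, Eif2s1 to -0.45, Eif2ak2 to -0.57, Sesn2 to 0.49 and Mthfd2 in MH over MWT to -0.60, and ended these calls. Atf5 and Mthfd2 lay on opposite sides of 0 in the same pairs, with and without the correction, and Ddit3 was on the side of Atf5.

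ER-associated degradation, which returns misfolded protein to the proteasome, had 1 of 13 genes called in each Ids-ko over wt comparison as labelled (7.69%, against 20.9% and 25% of all genes). Ube2j1, an ER ubiquitin-conjugating enzyme, was lower in CxH over CxWT (-0.70 ± 0.04). Vimp, a selenoprotein of the retrotranslocation machinery, was lower in MH over MWT (-0.73 ± 0.10). In CxH over MH and in CxWT over MWT, 0 of the 13 were called, against 3.5% and 7.54% of all genes.

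Of the 20 heat shock factors and cytosolic chaperones, 1 was called higher and 2 lower in CxH over CxWT, and 0 higher and 3 lower in MH over MWT, where Hspa1a was higher. That is 15% of the list in both, against 20.9% and 25% of all genes, and of the 3 lower in MH over MWT the GC and length correction left Dnaja1 called. Dnaja1, a J-protein partner of the cytosolic Hsp70s, was lower in both (-0.92 ± 0.06 and -1.04 ± 0.06). Hsp90aa1, the inducible Hsp90, had 694 RPM in the library labelled CxH and 911 in CxWT, with 742 in MH and 1348 in MWT. MWT was thus highest, and the ratio in MH over MWT was -0.86 ± 0.01. Chordc1, an Hsp90 co-chaperone, was lower in that pair too (-0.97 ± 0.06). Hspa4l, a nucleotide exchange factor of the Hsp110 family, was lower (-1.12 ± 0.04) and Hspa2, another Hsp70, higher (0.92 ± 0.10) in CxH over CxWT. The list's median was -0.28 and -0.25 in these comparisons. Of 6 mitochondrial chaperones and proteases, 0 were called in any of the 4 comparisons of the study, against 3.5% to 25% of all genes. In CxH over MWT, 1 of the 6 was called (16.7%, against 30.7% of all genes). It was Hspd1, named after its values were seen, at -0.85 ± 0.04, and the GC and length correction took it to -0.49 and ended the call.

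The 8 genes differ in base composition, and the log2 ratios of all genes moved with it. GC content of the longest transcript was lowest for Hsp90b1 (43.8%) and Hspa5 (47.3%). It was 48.6% for Pdia4, 50% for Calr, 53.0% for Xbp1, 54.1% for Atf4, 55.4% for Ddit3 and 59.2% for Hspa1a. Across 10723 genes, Spearman's rho between GC content and the log2 ratio was 0.462 in CxH over CxWT, 0.488 in MH over MWT, 0.582 in CxH over MH and 0.629 in CxWT over MWT. It was lowest in MH over CxWT (0.164) and highest in CxH over MWT (0.687), the pair with the most calls among the 8 genes. The points of each value share 2 libraries, and genes are not independent replicates. The 653 genes within 1 percentage point of the GC content of Hspa1a had a median ratio of 0.47 in MH over MWT, among which Hspa1a stood at the 92.8th percentile. In CxWT over MWT their median was also 0.47 and Hspa1a stood at the 98.8th percentile. For Hsp90b1 the 936 genes of like GC content had a median of -0.31 in MH over MWT, and its own value of -0.63 stood at the 19.3rd percentile. Ddit3 stood at the 86.8th percentile of its 1095 genes in MH over MWT. After correction for GC content and length, Hsp90b1 was -0.28 in CxH over CxWT and -0.25 in MH over MWT. The part of base composition in these differences was not tested beyond this correction.

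**Figure D4:**
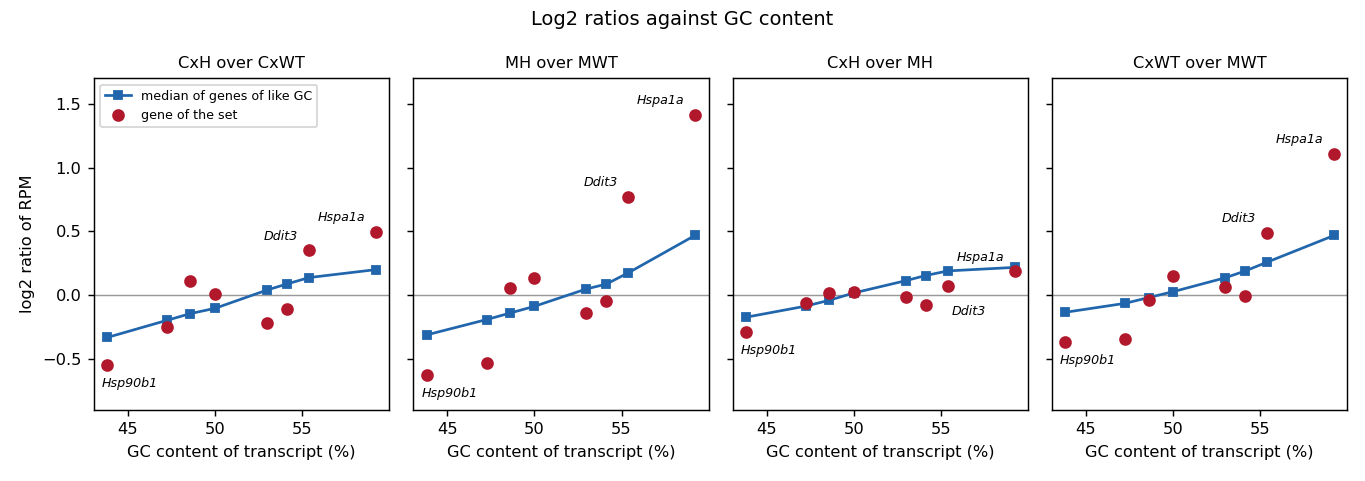
Log2 ratio of RPM (y axis) of the 8 genes (circles) against the GC content of their longest transcript (x axis, %), with the median of the genes within 1 percentage point of each (squares), in the 4 comparisons of the study as labelled. The squares rise with GC content in every panel, and Hspa1a, at 59.2% GC, lies above its square in MH over MWT and CxWT over MWT.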

How the data were processed

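Poly(A) RNA pooled from 7 mice per library was sequenced on a SOLiD 3 Plus system in a single run for all 4 libraries. Per the study's methods, the authors aligned quality-filtered reads to NCBI37/mm9 with PASS (best hit, at most 2 mismatches, no gap). They counted reads that fell on 1 gene alone, and kept a gene if reads covered more than 50% of it. The deposited values are raw counts of reads per gene. The gene annotation and the strandedness of the counting are not given in the sources used here.

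Samples were grouped by their titles. Counts were divided by the aligned reads per library that the study states (RPM). Symbols came from Entrez identifiers: 12690 of 12700 genes had one, 12441 were matched to GENCODE vM1 and 12250 had a length and GC content. Ero1l, Ero1lb and Vimp were matched by synonym, and Trib3, Phgdh, Vcp and Hspa8 were not analysed here. Every gene was tested in each of 6 library pairs by a Poisson likelihood ratio test and called at the study's thresholds, 0.05 for the p-value and 0.7 for the size of the log2 ratio. A count of 0 was set to 1 for a ratio. The procedure was tested on simulated counts that held counting error only, which cannot show how it errs with spread between pools. Intervals are exact 95% ones (Poisson for levels, Clopper-Pearson for ratios), and they cover counting error only. No p-value is printed, since each condition is 1 library.

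The members, the pathway and marker lists and the rules were chosen with earlier results of these data known. The text names all members, Ids, the pathway genes whose log2 ratio reached 0.7 in size, with 100 or more reads in either library of that comparison, among the 4 comparisons of the study, and the 3 genes nearest to each member in pattern. Alternatives were column totals, TMM factors, DESeq2 size factors, a log2 threshold of 1, edgeR's exact test with an assumed coefficient of variation of 0.2, a correction by cubic polynomials in GC content and log length, 0.5 added to every count, and leaving out genes under 100 reads in both libraries. Python 3.11.15, scipy 1.17.1, R 4.3.3, edgeR 4.0.16 and DESeq2 1.42.0 were used.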

Additional observations from a re-analysis of the deposited data

Results flagged for a closer look

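Ids, the targeted gene, went in opposite directions in comparisons that share a contrast. Its log2 ratio for Ids-ko over wt as labelled was -1.39 in the cortex and 1.24 in the M area. For cortex over M area as labelled it was -1.44 in Ids-ko and 1.19 in wt. With 1 library per condition the difference between these values was not tested.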

How the results depend on the processing

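Of the 48 recomputed counts whose reported count was above 0, 36 stayed within 1.5 times of it. The other 32 recompute a count of 0 and were again 0. With a log2 threshold of 1, the members called fell from 2 to 1 in MH over MWT and from 3 to 1 in CxH over MWT. With that threshold, the 83 other pathway genes fell from 12 to 3 in CxH over CxWT, from 16 to 3 in MH over MWT and from 6 to 0 in CxWT over MWT. With edgeR's exact test and an assumed variation of 0.2, 1 member was called in MH over MWT, and 7, 6 and 2 of the other genes in those 3 comparisons. With the correction for GC content and length, 1 member was called in CxH over MWT, and 5 and 2 of the other genes in MH over MWT and CxWT over MWT. Of 48 member ratios, 13 changed sign under at least 1 alternative, 0 of them called. Over all genes, the calls at a threshold of 1 numbered 1401, 1642, 143 and 295 in the study's 4 comparisons, against 2658, 3170, 444 and 958. The exact test called 191 and 487 in the 2 comparisons of areas, and the GC and length correction called 290 and 381. TMM factors moved the share of higher calls in CxH over CxWT from 45.2% to 56.0% and in MH over MWT from 49.1% to 56.1% (56.3% with DESeq2 factors, 42.1% with column totals), and column totals moved it from 69.6% to 58.4% in CxH over MH and from 72.0% to 55.2% in CxWT over MWT. The median of all genes shifted by more than 0.1 in MH over CxWT (0.11 with TMM or DESeq2 factors) and CxH over MWT (-0.11 with column totals). No paired analysis was run, and because each condition is 1 library no replicate could be left out. Spread between pools of mice is unknown, and the sources of the library labels could not be checked beyond Ids and the marker genes.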
